A study of Mus musculus with 2 samples.

Results

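The Insig2-Ddx18 domain is a 370 kb stretch of mouse chromosome 1, chr1:123100001-123470000 on the mm9 build (NCBIM37), whose internal chromatin contacts were measured by capture Hi-C in embryonic limbs. The members described here are all pairs of bins with both ends in the domain and at least 20 kb between their starts. They number 630 of the 112101 such pairs in the whole map at a bin size of 10 kb, and 2485 of 447931 at 5 kb. The ends of the domain were chosen from measured values, as neighbouring minima of an insulation score with a 150 kb window on this same map, so the drop of contact at the ends is a description and not a result. The pairs were divided by the protein-coding genes of GENCODE M1 into same-gene, different-gene, gene to gene-free and gene-free pairs, with a bin counted as a gene bin where it overlaps a gene body.

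The material was fore- and hindlimbs, pooled, of wild-type mouse embryos at embryonic day 10.5, with no allele or agent named beyond the wild-type genotype. The limbs were dispersed to single cells, fixed with 2% paraformaldehyde, digested with DpnII and religated, and a chosen region was enriched with custom probes before sequencing. The series concerns En1, a limb patterning gene in the neighbouring domain, and the elements that maintain its expression. Both samples carry replicate number 2 in their titles, and their reads were deposited as 1 merged map, so there is 1 group, no spread between samples and no test.

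A self-interacting domain is a stretch of chromatin whose positions meet each other more often than positions beyond its ends, and such domains commonly end where the protein CTCF is bound and where cohesin-driven loops stop. Contact frequency falls with genomic distance inside any domain, so each pair has to be read against other pairs of the same distance. The domain holds 4 protein-coding genes of unrelated function: Insig2 encodes a sterol-sensing protein of the endoplasmic reticulum that restrains lipid synthesis, Ccdc93 a subunit of an endosomal sorting complex, Htr5b a serotonin receptor and Ddx18 a DEAD-box RNA helicase. Insig2 (ENSMUSG00000003721.8) lies on the minus strand at chr1:123200930-123229166, Ccdc93 (ENSMUSG00000026339.12) on the plus strand at chr1:123327626-123403037, Htr5b (ENSMUSG00000050534.8) on the minus strand at chr1:123406419-123425042 and Ddx18 (ENSMUSG00000001674.5) on the minus strand at chr1:123450412-123464566. The 3 gene-free stretches separate or flank them: 100 kb below Insig2, 90 kb between Insig2 and Ccdc93, and 20 kb between Htr5b and Ddx18.

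The results turn on the start of Ccdc93, where contact dipped most among bins away from the domain's ends, and on 2 gene-free stretches that met each other more than the map-wide mean. The 250 bases before the start of Ccdc93, in the reference genome at chr1:123327376-123327625 on the plus strand, are shown because the inner dip lies on this bin. Capitals mark each CG, the dinucleotide that is methylated in mammals and clusters at many gene starts.
Ccdc93 upstream: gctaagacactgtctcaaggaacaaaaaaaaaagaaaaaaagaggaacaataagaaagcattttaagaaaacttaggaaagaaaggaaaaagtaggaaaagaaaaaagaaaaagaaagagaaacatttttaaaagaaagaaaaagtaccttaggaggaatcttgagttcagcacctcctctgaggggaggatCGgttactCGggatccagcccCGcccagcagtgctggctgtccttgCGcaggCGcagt
This window has a GC content of 40.8%, against 43.8% in the map, and 5 CG, against a map-wide mean of 2.12 per 250 bases. The letters CCANNAGNNGGC, the conserved core of the CTCF motif, were searched on both strands of the whole map. They occurred 277 times in the map and 21 times in the domain, 8 on the plus and 13 on the minus strand. Of the 37 domain bins of 10 kb, 35.1% held a match, against 41.7% of all 10 kb bins of the map, and the bin of the Ccdc93 start held 0. Of the 7 bins that form the enriched pairs described further on, 3 held a match and 4 held none (123130001, 123160001, 123280001 and 123300001). The matches in those 3 (123110001, 123140001 and 123290001) and the match nearest to the Ccdc93 start, the last chosen after its place was seen, are printed with the core in capitals and 9 flanking bases on each side, each read 5′ to 3′ on its own strand.
chr1:123112098-123112127, plus strand: ctcagagacCCAGCAGAAGGCctttggtaa
chr1:123112611-123112640, minus strand: acgagttggCCAGCAGATGGCacctctgtg
chr1:123145846-123145875, plus strand: ccataaataCCAGAAGAGGGCatcagatcc
chr1:123298434-123298463, plus strand: accgttgttCCAAAAGCAGGCctagggttc
chr1:123315843-123315872, minus strand: tcagagtggCCACCAGGTGGCagatggata
All 5 are intergenic. The last lies 4.14 kb below the bin of the Ccdc93 start and 11.8 kb below the start itself. The third holds a 12-base form shared by 9 of the 21 matches in the domain. A match is a description of letters and not a bound site, and CTCF binding was not measured here.

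The merged map spans 4750 kb and holds 6484654 read pairs. All 37 domain bins of 10 kb had a balanced value, and their totals ran from 9150 read pairs at 123100001 through a median of 26758 to 42373 at 123400001, against a map median of 22376. Of the 475 map bins, 56 had under 25% of the map median and are called low here; none of them lies in the domain. At 5 kb, 1 domain bin lacked a balanced value, which left 2415 of the 2485 pairs. Each pair is reported as its observed/expected ratio, the raw read pairs over those given by the map-wide mean balanced value at that distance and the balancing factors of both bins. Intervals are exact Poisson 95% limits unless named otherwise and cover counting error only.

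One limit of the expected value touches every ratio. At exactly 200 kb the map-wide mean balanced value was 121, against 89.9 at 190 kb and 82.5 at 210 kb. A single pair of low bins far outside the domain (119720001 with 119920001, 98 read pairs) had a balanced value of 15216, and without that pair the mean was 87.7. Ratios at 200 kb are therefore too low. The map-wide mean was also higher with low bins at shorter distances, such as 699.9 against 671.6 without them at 20 kb. With the expected value taken without low bins, the ratio of domain pairs was 0.968 in place of 0.932 at 20 to 90 kb. It was 1.03 in place of 0.986 at 100 to 190 kb, and 0.983 in place of 0.940 over 20 to 200 kb. The side of 1 on which a ratio near 1 falls thus depends on the expected value, and such ratios are compared below with each other. Values with the expected value taken without low bins are given as "without low bins" where they differ most.

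Contacts inside the domain decayed steadily with distance and showed no plateau at the size of the domain. The mean balanced value over domain pairs was 672 for pairs 20 kb apart and 255 for pairs 50 kb apart. It was 143 at a distance of 100 kb, 76.1 at 200 kb (8.83-fold below the value at 20 kb) and 53.6 at 300 kb. The 1 pair that spans the whole domain, 360 kb apart, held 9 read pairs and a balanced value of 18.8. The slope of log10 contact on log10 distance from 20 to 200 kb was -0.857 (95% counting interval -0.868 to -0.846). It was -0.948 from 20 to 100 kb and -0.819 (-0.877 to -0.761) from 100 to 200 kb. The whole map had a slope of -0.844 (-0.855 to -0.834) from 20 to 200 kb, and of -0.879 (-0.881 to -0.876) without low bins, so the domain lay between both.

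The domains that hold En1, Gli2 and Marco were compared, with ends set by the same boundary rule, and no other domain of the map was. All of them decayed less steeply. The slope from 20 to 200 kb was -0.781 (-0.787 to -0.774) in the domain of En1, -0.672 (-0.681 to -0.663) in the domain of Gli2 and -0.693 (-0.701 to -0.684) in the domain of Steap3 and Marco. From 100 to 200 kb the slopes were -0.593, -0.467 and -0.526 in the same order, each with a counting interval that did not overlap that of the Insig2-Ddx18 domain. At 300 kb the mean balanced value was 88.2, 249.8 and 129 in those domains, against 53.6 here and 58.3 over the map without low bins. The lower stretch of this domain, described next, fell with a slope of -0.402 (-0.535 to -0.268) from 100 to 200 kb, after -0.892 from 20 to 100 kb.

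**Figure D1:**
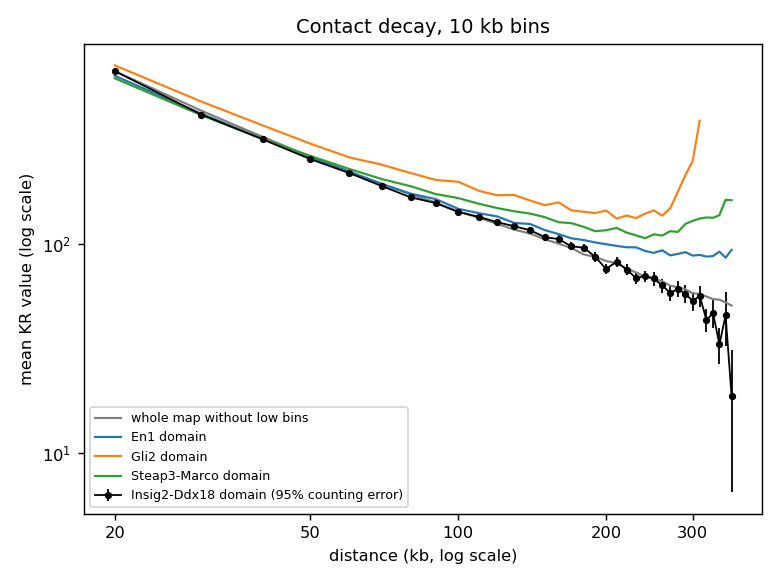
Mean balanced (KR) value against distance, both on log scales, for pairs of 10 kb bins in the Insig2-Ddx18 domain (black points, bars are 95% counting error), the map without low bins (grey) and 3 other domains. The black points fall from 672 at 20 kb to 53.6 at 300 kb along the grey line, while the other domains flatten above it.

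Away from its ends, the domain had 1 dip of contact, at the start of Ccdc93. The insulation score of a bin is the log2 mean balanced contact between the stretches on either side of it, relative to the map median, so a low score is a place that few contacts span. With a 50 kb window the score of the bin 123320001-123330000 was -0.54 ± 0.02 (SD of counting error), a local minimum with a prominence of 0.65. The score of this bin lay below the highest score inside the domain, 0.18 at 123400001-123410000, and above those of the bins at the domain's ends, -0.72 at 123090001-123100000 and -0.85 at 123470001-123480000. Of all map bins, 6.74% scored as low or lower.

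This was 1 call among 31 bins far enough from the ends to be tested with a prominence of at least 0.1, or 3.23%. Over the map, 12.5% of bins were called with the same window and prominence, but there bins near domain ends were kept in. The shares are therefore not alike, and whether the domain held fewer minima than the map cannot be read from them. Bins within 30 kb of an end were left out, since their windows reach across it. Of the 37 domain bins, 3 scored lower than the Ccdc93 bin, all in those outer stretches: 123110001 (-0.56), 123450001 (-0.69) and 123460001 (-0.81). The first of them was itself a minimum with a prominence of 0.11, and it would have been called without that limit. Among the bins tested, the minimum at 123160001-123170000 had a prominence of 0.09 and was not called. The Ccdc93 minimum was in the same bin with windows of 30 kb (score -0.68), 100 kb (-0.44) and 150 kb (-0.43), and its prominence fell from 0.80 to 0.36 and 0.12. Since the domain was defined by minima of a prominence of at least 0.2 in the 150 kb window, the rule itself fixed that this one is weaker there. With 5 kb bins the minimum was in 123325001-123330000 at 30, 50 and 100 kb (-0.64, -0.55 and -0.45), the bin that holds the first base of Ccdc93. It was called under 6 of 6 alternatives of bin, value, window and prominence, with raw counts 1 bin lower, at 123310001. Those that changed only the prominence, to 0.2 or 0.05, could not have lost a minimum with a prominence of 0.65.

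**Figure D2:**
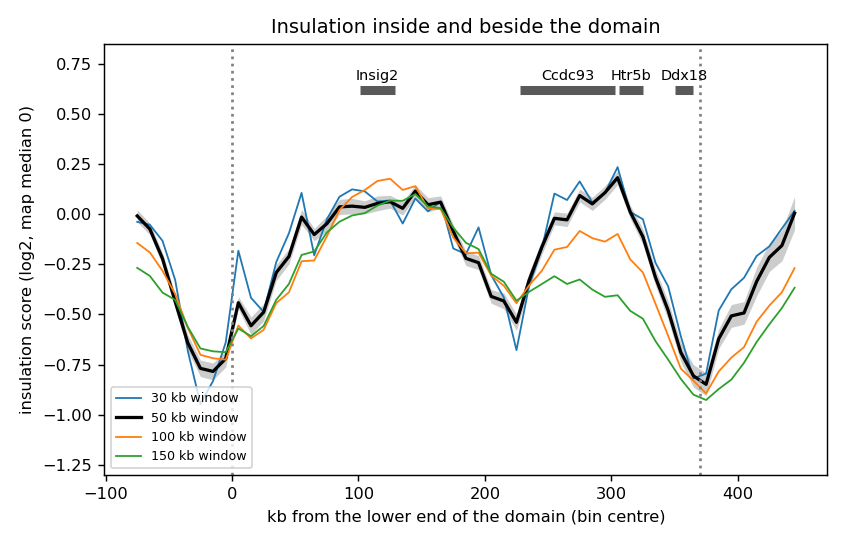
Insulation score (log2, map median at 0) of 10 kb bins against distance from the lower end of the domain, for 4 window sizes; the band is the counting SD at 50 kb, dotted lines are the ends of the domain and bars are gene bodies. The 50 kb line dips to -0.54 at the start of Ccdc93, between deeper minima at both ends.

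The dip divides the domain into a gene-poor and a gene-rich side. The lower sub-domain, chr1:123100001-123320000, is 220 kb long and has 22 bins, of which 3 hold gene sequence, all of Insig2. The upper sub-domain, chr1:123330001-123470000, is 140 kb long and has 14 bins, of which 12 hold the rest of Ccdc93, Htr5b and Ddx18. Of the 630 pairs, 210 lie inside the lower sub-domain, 78 inside the upper, 308 across both, and 34 touch the boundary bin.

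The minimum was called from pairs 20 to 100 kb apart, since the window takes 50 kb on each side of a bin. Longer pairs also differed across it. At 100 kb or more, the 88 pairs inside either sub-domain held 16079 read pairs, an observed/expected ratio of 1.18 (1.16 to 1.198). The 272 pairs across the boundary bin held 24820 read pairs, a ratio of 0.833 (0.822 to 0.843). The quotient of both was 0.706 (exact conditional 95% interval 0.692 to 0.720), and 0.711 without low bins. Of the 272 pairs, 1 at exactly 100 kb had entered the insulation score. Over pairs of 110 kb or more, none of which had, the ratio was 1.21 (1.19 to 1.23) inside and 0.835 (0.824 to 0.846) across, with a quotient of 0.689 (0.674 to 0.704). At matched distances of 100 to 200 kb the ratio was 1.19 inside the lower sub-domain, 1.12 inside the upper and 0.780 across. The same distances gave 0.641 across the lower end of the domain and 0.508 across its upper end, which are values the choice of the domain fixed to be low. These distances include 200 kb, where low bins raised the expected value most. Without low bins the values were 1.25, 1.16, 0.840, 0.693 and 0.550 in the same order. Contact across the inner dip was reduced less than at either end. At 20 to 90 kb the inner ratio was 0.698 (0.683 to 0.714), against 0.954 inside the lower and 0.982 inside the upper sub-domain. Many of these closer pairs entered the insulation score, and all are given as a description.

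The ratio of each bin with either sub-domain is given as a description. It pools all pairs at 20 kb or more, including pairs that entered the insulation score, and neighbouring bins are not independent. From 70 to 220 kb above the lower end, 15 of 15 bins had a higher ratio with the lower sub-domain (0.858 to 1.17) than with the upper (0.636 to 0.913). Above the boundary bin the order was turned in 14 of 14 bins, with 0.638 to 0.964 for the lower and 0.792 to 1.15 for the upper side. The lowest 70 kb, a limit set after the values were seen, did not follow this. There the ratios of a bin with both sides differed by at most 0.046 in 7 bins, and 4 of the 7 were higher with the lower side. Pooled over all its internal pairs, a bin's ratio ran from 0.702 (0.670 to 0.734) at 123100001, the lowest bin of the domain and the one with the fewest read pairs, through a median of 0.945 to 1.15 (1.12 to 1.19) at 123160001, whose total of 10172 read pairs was also among the lowest.

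**Figure D3:**
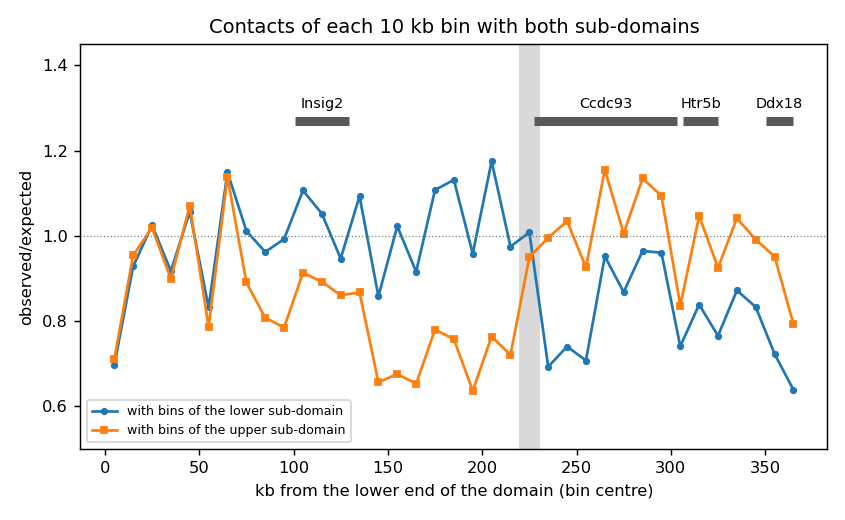
Observed/expected ratio of each 10 kb bin with all bins of the lower (blue) and of the upper (orange) sub-domain, against distance from the lower end of the domain; the grey band is the boundary bin and bars are gene bodies. Blue exceeds orange from 70 kb up to the band, orange exceeds blue beyond it, and both run together below 70 kb.

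In the same pooled ratios, the starts of the 4 genes followed their place. The Insig2 start bin had a ratio of 0.946 (0.921 to 0.972) with the lower and 0.860 (0.813 to 0.909) with the upper sub-domain, and the Ccdc93 start bin, which is the boundary bin, had 1.01 (0.981 to 1.04) and 0.950 (0.922 to 0.979). The Htr5b start bin had 0.765 with the lower and 0.925 with the upper side, and the Ddx18 start bin 0.638 and 0.792, so the bin nearest the domain's upper end was low with both sides.

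Split by gene content, gene to gene-free pairs were the least frequent for their distance. Their 331 pairs held 55538 read pairs, a ratio of 0.891 (0.884 to 0.899). The 192 gene-free pairs had 0.976 (0.968 to 0.985; 54058 read pairs), the 30 same-gene pairs 0.975 (0.960 to 0.991; 15867 read pairs) and the 77 different-gene pairs 0.960 (0.943 to 0.977; 12373 read pairs). Without low bins the values were 0.931, 1.02, 1.02 and 1.01, with gene to gene-free pairs again lowest, while the side of 1 changed for the other 3 classes. Intervals of the other 3 classes overlapped each other.

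Among the 4 placements relative to the inner dip, gene to gene-free pairs were low in the one across it. Because the lower side is mostly gene-free and the upper side mostly gene, 234 of the 331 gene to gene-free pairs cross it. Those 234 had a ratio of 0.784 (0.774 to 0.793), whereas the 55 inside the lower sub-domain had 1.02 (1.01 to 1.04), the 22 inside the upper 1.01 (0.988 to 1.03) and the 20 that touch the boundary bin 0.999 (0.972 to 1.03). Gene-free pairs showed the same split, 0.987 (0.979 to 0.996) for 154 pairs inside the lower sub-domain and 0.839 (0.811 to 0.868) for 38 across. Different-gene pairs had 0.973 (0.952 to 0.994) for 34 pairs inside the upper sub-domain and 0.880 (0.849 to 0.913) for 36 across. Without low bins these values were 1.01 (0.988 to 1.03) and 0.945 (0.911 to 0.980). Pairs across lie further apart, with a median of 175 kb against 70 kb for these different-gene pairs, and distances were not matched. Gene content and side of the dip coincide here, so for the class as a whole they cannot be told apart.

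**Figure D4:**
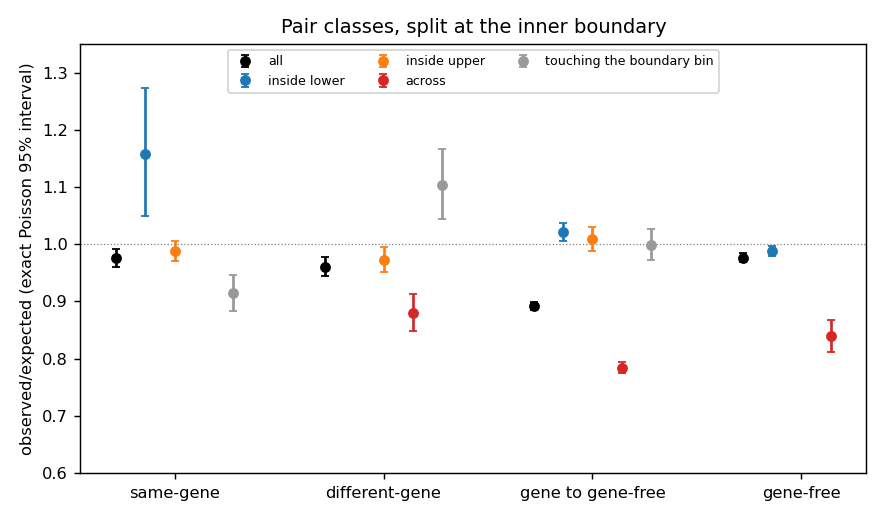
Observed/expected ratio with exact Poisson 95% intervals for the 4 pair classes, over all pairs (black) and by place relative to the inner boundary. In each class that has pairs across the boundary they are the lowest (red), at 0.784, 0.839 and 0.880.

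Classes also differed in how their ratio changed with distance. Gene-free pairs inside the lower sub-domain had a ratio of 0.927 (0.918 to 0.937) at 20 to 90 kb over 85 pairs and of 1.22 (1.198 to 1.24) at 100 to 190 kb over 66 pairs. Gene to gene-free pairs inside the same sub-domain, all with an end in Insig2, had 1.03 (1.01 to 1.04) over 46 pairs at 20 to 90 kb. They had 0.962 (0.906 to 1.02) over 9 pairs at 100 to 190 kb. Of those 9, the pairs that reach down from Insig2 to the lower end of the domain had 0.627 to 0.929. Those that reach up from Insig2 had 1.10 to 1.37. Short contacts of the gene-free stretches were thus below those of the Insig2 bins. The longer ones were above as a pool, but the Insig2 value there rests on few pairs that differ by direction.

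Same-gene pairs are nearly all pairs within Ccdc93, the longest gene of the domain at 75412 bases: it gave 28 of the 30, Insig2 and Htr5b 1 each and Ddx18 none. Within Ccdc93 the ratio was 0.990 (0.974 to 1.01), close to the map-wide mean, and 1.03 without low bins. The first bin of the gene, on the dip, met the other Ccdc93 bins with a ratio of 0.914 (0.883 to 0.946), below the 1.01 (0.995 to 1.03) of the other 21 pairs. The start bin and the last bin of Ccdc93 held 321 read pairs, a ratio of 0.886 (0.792 to 0.988). The highest same-gene pair joined 123360001 with 123380001 inside Ccdc93 (797 read pairs, 1.34, 1.25 to 1.43), and the lowest joined 123350001 with 123400001 (0.726, 0.647 to 0.811). The single pair within Insig2 had 1.16 (1.05 to 1.27; 419 read pairs) and that within Htr5b 0.767 (0.720 to 0.815; 1016 read pairs).

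Among different genes, the neighbours Ccdc93 and Htr5b had the highest ratio, 1.07 (1.04 to 1.10; 16 pairs, 4879 read pairs). Htr5b and Ddx18, neighbours as well, had the lowest, 0.746 (0.709 to 0.785; 6 pairs, 1508 read pairs). Ccdc93 and Ddx18, further apart, had 0.921 (0.888 to 0.955). Insig2 had 0.953 (0.919 to 0.989) with Ccdc93, 0.775 (0.718 to 0.836) with Htr5b and 0.889 (0.791 to 0.995) with Ddx18. The Insig2 to Htr5b value includes pairs at 200 kb and was 0.900 (0.834 to 0.970) without low bins, so it is not distinguishable from the Insig2 to Ddx18 value, 0.917 there. The highest different-gene pair joined the end of Insig2, 123200001, with 123390001 in Ccdc93 (91 read pairs, 1.48, 1.19 to 1.82). The lowest joined the start bins of Insig2 and Htr5b, 123220001 with 123420001 (68 read pairs, 0.505, 0.392 to 0.640), which lie 200 kb apart. It had 0.735 (0.571 to 0.932) without low bins and was then no longer the lowest. That place went to 123410001 in Htr5b with the Ddx18 start bin 123460001, at 0.671.

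Pooled over pairs inside and across the dip, contact of genes with the gene-free stretches fell along the domain. The ratio was 1.02 (1.00 to 1.03) for Insig2, 0.863 (0.854 to 0.873) for Ccdc93, 0.822 (0.805 to 0.840) for Htr5b and 0.718 (0.695 to 0.742) for Ddx18, the gene at the domain's upper end. Adjacent genes in this order had intervals that did not overlap. Of the 61 Insig2 pairs, 55 lie inside the lower sub-domain, whereas most pairs of the other genes cross the dip. Gene to gene-free pairs inside the upper sub-domain had 1.01 (0.988 to 1.03), against 0.784 across. Gene and side of the dip thus cannot be told apart in this order. Among gene to gene-free pairs with at least 50 expected read pairs, the highest joined 123110001 with the Ccdc93 start bin (207 read pairs, 1.55, 1.35 to 1.78). The boundary bin itself thus took part in the long contacts of the lower gene-free stretch. Below that limit, 123160001 with 123370001 in Ccdc93, across the boundary bin, had 1.61 (50 read pairs). The lowest gene to gene-free pair joined 123260001 with the Ddx18 start bin 123460001, 200 kb away (36 read pairs, 0.281, 0.197 to 0.389, and 0.409 without low bins).

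Of the 6 pairs of gene starts, the start bins of Insig2 and Ccdc93 had 214 read pairs or 1.196 (1.04 to 1.37), and Htr5b with Ddx18, 40 kb apart, had 279 read pairs or 0.668 (0.592 to 0.751). Ccdc93 had 0.880 (0.762 to 1.01) with Htr5b and 1.04 (0.893 to 1.21) with Ddx18, and Insig2 had 0.997 (0.780 to 1.26) with Ddx18; none of these 3 intervals excluded 1. Which pair ranked highest depended on the setting: with 5 kb bins Ccdc93 with Ddx18 had 1.57 and Insig2 with Ccdc93 1.52, and by distance alone 1.519 and 1.502. Ccdc93 with Htr5b changed from 0.880 to 1.13 with 5 kb bins. Over all 6 pairs the ratio was 0.840 (0.789 to 0.894), but 1.07 with 5 kb bins, so start-to-start contact had no stable direction as a group.

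The 2 large gene-free stretches had a higher ratio with each other, across Insig2, than within either. Pairs between the stretches mostly lie further apart than pairs within one, and distances were not matched. Over all pairs inside the lower sub-domain the ratio was 0.954 at 20 to 90 kb and 1.19 at 100 to 190 kb, so stretch and distance cannot be told apart here. The 90 pairs between the 100 kb stretch below Insig2 and the 90 kb stretch above it held 19699 read pairs, a ratio of 1.15 (1.13 to 1.16). Within the first the ratio was 0.875 (0.861 to 0.888; 36 pairs) and within the other 0.948 (0.932 to 0.964; 28 pairs). The small stretch between Htr5b and Ddx18 had 0.969 (0.922 to 1.02) with the first stretch and 0.752 (0.718 to 0.787) with the one just below Ccdc93, which is nearer to it. The lowest gene-free pair, 123240001 with 123430001, joined those last 2 stretches (34 read pairs, 0.437, 0.302 to 0.610).

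The pairs called enriched lie in this contact between gene-free stretches. A pair was called at 10 read pairs or more, with a lower 95% limit above 1.5 and a ratio above 1.5 times that of the surrounding pairs 2 to 5 bins away. This gave 5 of 630 pairs, or 0.794%, against 1.3% of 15890 map pairs over the same distances and 1.12% of map pairs without low bins. The domain was thus not rich in such pairs. All 5 joined gene-free bins inside the lower sub-domain and formed 1 cluster, with none in the other 3 classes.

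The pair with the highest lower limit joined 123140001-123150000 with 123290001-123300000, 150 kb apart on either side of Insig2. It held 274 read pairs where 137 were expected, a ratio of 2.00 (1.77 to 2.26), and its surroundings had 1.09. The other 4 were 123140001 with 123300001 (204 read pairs, 2.00), 123130001 with 123300001 (203, 1.97), 123110001 with 123280001 (275, 1.78) and 123160001 with 123300001 (78, 2.17). At the threshold, 123110001 with 123280001 was just inside with a lower limit of 1.58, and 123140001 with 123280001 just outside with 1.48. The pair 123140001 with 123310001 had a lower limit of 1.5003 and failed only the comparison with its surroundings.

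The 5 calls were the top of a broad patch and not isolated points. With a threshold of 1.2 in place of 1.5, 25 of 630 pairs passed, or 3.97%, against 6.4% of the map. Of these, 18 joined bins within 123110001-123180000 to bins within 123270001-123320000, at 100 to 190 kb, with ratios of 1.37 to 2.17 and 78 to 348 read pairs. A further 2 joined the same lower bins to the Ccdc93 start bin. The remaining 5 lay in the upper sub-domain, among them Ccdc93 bins with each other and with the stretch between Htr5b and Ddx18. None of the 25 crossed the boundary bin. With 5 kb bins, 12 of 2415 pairs were called at 1.5, or 0.497%, against 1.02% of the map, all gene-free and inside the lower sub-domain, in 5 clusters. The 5 kb bin 123145001-123150000 was an end of 7 of the 12. It holds the printed match at chr1:123145846-123145875, while the bins of the pair with the highest ratio at 10 kb, 123160001 and 123300001, hold none.

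**Figure D5:**
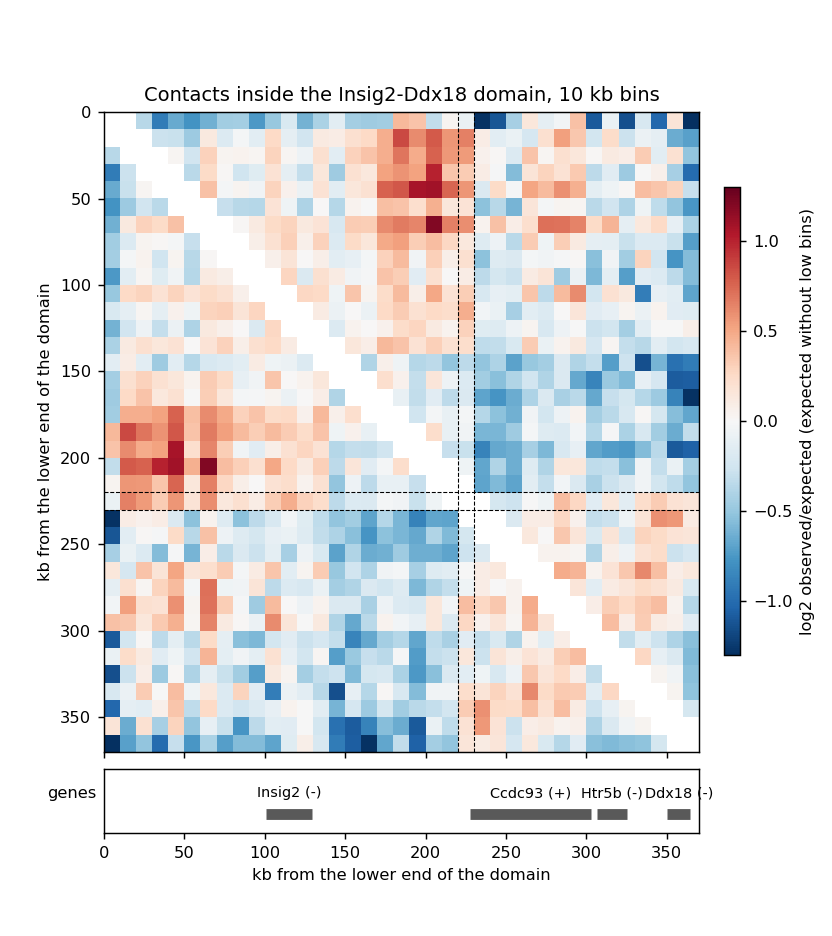
Log2 observed/expected ratio (expected without low bins) for every pair of 10 kb bins in the domain at 20 kb or more, by distance of both bins from the lower end; dashed lines bound the boundary bin and bars are gene bodies. Red pairs gather between 10 to 80 kb and 170 to 230 kb, and blue prevails where bins of 140 to 220 kb meet those beyond the boundary bin.

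The extreme corner of the domain was not enriched. The 9 pairs that join the 3 lowest with the 3 highest bins had a ratio of 0.805 (0.734 to 0.881; 472 read pairs), and the corresponding corners were 1.31 (1.24 to 1.38) for the lower and 1.13 (1.08 to 1.18) for the upper sub-domain. Without low bins the lower one was 1.46 (1.38 to 1.55) and the upper one 1.17. The corner of the whole domain was 10.2 (9.91 to 10.5) for En1 (9.55 without low bins), 3.90 (3.77 to 4.04) for Gli2 and 3.85 (3.69 to 4.03) for Steap3-Marco. Among pairs of up to 360 kb, 5 of 1505 were called enriched in the En1 domain, 15 of 465 in the Gli2 domain and 34 of 770 in the Steap3-Marco domain.

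The domain kept 30.4% (Wilson 95% interval 30.3 to 30.5) of its read pairs at 20 kb or more inside, 137836 of 453300, each read pair counted once. The share given by distance and balancing alone was 31.5%, a quotient of 0.967, and 1.00 without low bins. The En1 domain kept 50.9%, 1.22 times its expected share, the Gli2 domain 39.3% or 1.28 times and the Steap3-Marco domain 36.6% or 1.17 times. These shares follow in part from the choice of the domains and are given as a description. A further 28.0% of the read pairs joined the domain to the En1 domain, with a ratio of 0.946 (0.941 to 0.951), and 15.2% joined it to bins above its upper end, with a ratio of 0.639 (0.634 to 0.644).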

How the data were processed

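Both wild-type samples were analysed as the 1 merged map deposited, so no comparison between samples, paired fit or leave-one-out was possible. The raw values are read-pair counts per bin pair as deposited, without normalization. The KR values are a balanced contact signal deposited by the authors for each bin size, read from the file names as Knight-Ruiz balancing. Per the submitters' processing notes, the tools included Bowtie2 2.3.4.1, Juicer 1.7.6 and SAMtools and the build was mm9. Per the deposited file names, HiCUP and a mapping quality minimum of 30 were used. Balancing scales up the few reads of poorly covered bins, which adds noise to map-wide means.

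Computed here (Python 3.11.15, numpy 2.4.6, scipy 1.17.1, pandas 2.3.3) were decay slopes, insulation scores, observed/expected ratios and enriched pairs, with code tested on simulated data. The domain, gene classes and rules were chosen with earlier results of these data known. Named items were the coding genes and their start pairs, the inner boundaries, the leading pair of each enriched cluster, the highest and lowest pair of each class with at least 50 expected read pairs, and core CTCF matches in those boundary and enriched bins. Alternatives varied bin size, expected value, thresholds, windows and distances. The RefSeq promoter table is on another build and was not used.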

Additional observations from a re-analysis of the deposited data

How the results depend on the processing

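The slope of -0.857 became -0.832 with 5 kb bins, -0.836 with raw counts, -0.948 at 20 to 100 kb, -0.908 at 100 to 300 kb and -0.921 with medians. In the order same-gene, different-gene, gene to gene-free and gene-free, ratios were 1.03, 1.01, 0.944 and 1.03 against the mean of the domain itself, 1.27, 1.00, 1.10 and 1.37 by distance alone, and 1.02, 1.01, 0.931 and 1.02 without low bins. With 5 kb bins they were 1.03 for same-gene, 0.865 for gene to gene-free and 0.941 for gene-free pairs. With gene bins at least 50% gene body, same-gene, different-gene and gene-free pairs had 0.992, 0.982 and 0.964. At 50 kb or more they had 0.954, 0.936 and 1.04. Inside a single sub-domain, same-gene, gene to gene-free and gene-free pairs had 0.992, 1.02 and 0.987. Inner boundaries numbered 2 with 5 kb bins, 6 with raw counts, 5 with a 30 kb window and 2 at a prominence of 0.05. The quotient across the boundary was 0.870 with 5 kb bins (0.700 with only the shared boundary), 0.728 against the domain's own mean, 0.612 at 150 kb or more, 0.661 at 100 to 200 kb, 0.689 at 110 kb or more and 0.749 without the enriched bins. Enriched pairs numbered 12 with 5 kb bins, 25 at a threshold of 1.2, 0 at 2 and 81 by distance alone, which included 2 of the 5. The share kept inside was 28.9% with 5 kb bins and with KR values, 20.6% at 50 kb or more and 34.9% with partners within 1 Mb. Pairs of gene starts pooled to 1.07 with 5 kb bins, 0.902 without low bins, 0.914 against the domain's own mean and 1.15 by distance alone. The cause of these shifts was not tested. Distance alone ignores how well each bin was covered. The settings without low bins, inside a single sub-domain, at 100 to 200 kb, at 110 kb or more, with only the shared boundary and without the enriched bins were chosen after seeing the data. Of 33 values for single start pairs and the leading enriched pair, 19 moved by less than their counting interval, 14 by more, and 0 changed sides of 1 where their interval excluded 1. No paired analysis was possible because the merged map carries no column per sample. Leaving out each replicate was not run for the same reason. Depth limits single pairs beyond 300 kb, down to 9 read pairs.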

Other observations

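The domain also met distant bins. Read pairs with all bins below the En1 domain, from 119650001 to 122470000, made up 24.3% of its read pairs at 20 kb or more, with an observed/expected ratio of 1.65 (1.64 to 1.66), and 1.59 (1.58 to 1.60) without low bins. The bin just below the domain, 123090001-123100000, had a ratio of 0.976 (0.953 to 0.999) with domain bins and the bin just above, 123470001-123480000, had 0.607 (0.583 to 0.632).

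The bin with the most DpnII sites (GATC) was the one with the fewest read pairs. The lowest bin of the domain, 123100001, held 47 GATC sites, against a median of 27 over domain bins, and 9150 read pairs, against a median of 26758. Its balanced contacts inside the domain were the lowest of all domain bins. The domain's bins ranged from 41.1% to 48.9% in GC content.

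With a 30 kb window, 4 minima were called beside the Ccdc93 start, at 123160001 (score -0.20, prominence 0.31), 123230001 (-0.05, 0.12), 123280001 (-0.20, 0.13) and 123380001 (0.06, 0.10). The first of these is the poorly covered bin of the enriched pair with the highest ratio. With 5 kb bins a minimum was also called at 123225001-123230000 (-0.05, 0.15), the bin that holds the start of Insig2.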
